A study of Homo sapiens with 4 samples.

Results

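HMGA1 knockdown in senescent fibroblasts was read as the difference between the Hi-C contact map of OIS-shA1 cells and that of OIS cells. Members were the pairs of 200 kb bins listed in both maps on the 22 autosomes, 3324138 pairs of the 4771282 listed in any of the 4 maps of the series, and 3310747 pairs remained without the pairs of a bin with itself. The corresponding difference in proliferating cells, Grow-shA1 minus Grow, held 3836131 pairs. All cells were IMR90, a normal human lung fibroblast strain, carrying ER:HRAS G12V in the vector pLNCX2. OIS-shA1 cells expressed a hairpin against HMGA1 from pMSCV miR shHMGA1 and had received 4OHT at 100 nM for 6 days, which activates the RAS fusion and brings the cells into oncogene-induced senescence (OIS). Grow-shA1 cells had the same constructs and no 4OHT. The OIS and Grow maps, without HMGA1 knockdown, had been made earlier by this group as a separate data set, so the data set and the knockdown cannot be told apart in either difference. The hairpin was 1 sequence, the 2 samples of each shA1 condition were pooled in 1 map, and there was therefore 1 map per condition and no replicate test. Hi-C holds no measure of HMGA1 RNA or protein, so the knockdown itself was not checked here. As a check of the cell type, the bins of 10 of 10 fibroblast marker genes lay in compartment A in both OIS maps, but so did 8 of 10 bins of genes of other cell types in OIS and 7 of 10 in OIS-shA1.

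HMGA1 is a small architectural protein whose AT-hooks bind the minor groove of A/T-rich DNA, and it is a structural component of the senescence-associated heterochromatin foci (SAHF) that form in RAS-senescent IMR90 cells. Hi-C counts how often a pair of genomic regions is found ligated together. Gene-rich, active chromatin (compartment A) and gene-poor, inactive chromatin (compartment B) each contact their own kind more than the other, and SAHF gather heterochromatin that lies far apart along a chromosome.

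The score of a pair is the authors' distance-corrected interaction score, in which positive values mean more contact than the average for that distance and negative values less. Its log base was not stated in the sources used here, so differences are given in score units and not as folds. A bin's local change is the mean difference over its pairs 0.2 to 2 Mb away, and its distal change the mean over pairs beyond 2 Mb on the same chromosome. Of 13547 autosomal bins, 12865 had at least 50% of their pairs listed in each map. Compartments were taken from the Grow map, with 5320 bins in A and 7544 in B, so that neither map of the comparison defined them.

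Because the local change varied with base composition, DNA from some windows with extreme local or distal change is shown first. Each sequence is the 150 bases at the middle of a 1 Mb window of 5 bins with the highest or lowest mean change, in GRCh37 (hg19), plus strand, and capitals mark runs of 6 or more A or T. The middle of a window is a sample of its sequence and not a mapped HMGA1 site. The first 3 windows had the highest local change.

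14q, chr14:40901616-40901765: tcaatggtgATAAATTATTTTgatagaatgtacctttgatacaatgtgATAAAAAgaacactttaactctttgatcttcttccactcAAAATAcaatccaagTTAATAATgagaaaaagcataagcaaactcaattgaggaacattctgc
3q, chr3:166900804-166900953: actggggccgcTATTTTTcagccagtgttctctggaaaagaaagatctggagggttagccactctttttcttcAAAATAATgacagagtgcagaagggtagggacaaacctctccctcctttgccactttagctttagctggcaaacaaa
21q, chr21:22300305-22300454: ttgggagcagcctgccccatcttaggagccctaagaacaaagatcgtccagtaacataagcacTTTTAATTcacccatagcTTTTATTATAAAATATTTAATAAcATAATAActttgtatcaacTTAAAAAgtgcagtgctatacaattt

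The next windows had the highest distal change.

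21q, chr21:21300322-21300471: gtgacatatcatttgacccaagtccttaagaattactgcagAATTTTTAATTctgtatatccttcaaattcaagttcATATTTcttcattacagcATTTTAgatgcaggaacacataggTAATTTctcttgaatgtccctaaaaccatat
13q, chr13:70099200-70099349: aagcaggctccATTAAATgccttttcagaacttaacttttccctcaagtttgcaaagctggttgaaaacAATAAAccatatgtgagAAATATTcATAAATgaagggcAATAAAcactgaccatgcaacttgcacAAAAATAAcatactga

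The last window had the lowest local change.

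12q, chr12:108498483-108498632: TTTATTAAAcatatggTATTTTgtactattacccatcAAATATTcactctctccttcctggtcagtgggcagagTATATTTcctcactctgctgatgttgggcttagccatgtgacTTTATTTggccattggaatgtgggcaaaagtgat

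Runs of 6 or more A or T made up 21.4%, 19.7% and 21.9% of all bases in the first 3 windows, 22.1% and 23.1% in the next 2, and 10.9% in the last. Over all kept bins the median was 15.7%, with 90% of bins between 8.33% and 21.9%. Among the 100 bins with the highest local change the median was 21.1%, and among the 100 with the lowest it was 12.5%. The 100 bins with the highest and the lowest distal change had medians of 21.7% and 17.4%, both above that of all kept bins. No window with the lowest distal change is printed.

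In senescent cells, the map with knockdown had about the same local contact over all listed pairs and less distal contact. The mean local change was -0.0065 (SD over chromosomes 0.023) and was above 0 on 10 of 22 chromosomes. Among bins with at least 80% of pairs listed it was -0.058, above 0 on 3 of 22. For distal pairs the mean was -0.035 (SD 0.017), above 0 on 3 of 22, and the median over pairs was -0.014. Contact changed by -0.021 up to 0.6 Mb and by 0.013 at 2.2 to 5 Mb, where 17 of 22 chromosomes were above 0. Among bins with at least 80% of pairs listed the value at 2.2 to 5 Mb turned to -0.025, with 5 of 21 chromosomes above 0. Over 50 to 100 Mb it changed by -0.055, and none of 20 chromosomes was above 0. In proliferating cells the local and distal means were -0.057 and -0.042, and no chromosome was above 0 for distal pairs. The distal scores were also less spread out in OIS-shA1 than in OIS: the ratio of their SDs was 0.924 over all distal pairs and 0.842 over 50 to 100 Mb, against 1.01 for distal pairs of Grow-shA1 and Grow. The number of pairs listed moved with this, from 76.1% of possible distal pairs in OIS to 74.3% in OIS-shA1, and its part in the result was not tested.

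Heterochromatin changed in opposite directions at short and long range. Pairs of B bins went from a mean local score of 0.336 in OIS to 0.450 in OIS-shA1, with 0.575 in Grow and 0.529 in Grow-shA1. The local change was 0.114, above 0 on 19 of 22 chromosomes. Their distal score went from 0.492 to 0.408, a change of -0.084 that was above 0 on 2 of 22. The change was positive up to 5 Mb, with 0.115 at 0.2 to 0.6 Mb (22 of 22 chromosomes above 0) and 0.064 at 2.2 to 5 Mb. It was -0.030 for bins 5.2 to 10 Mb apart, -0.097 over 20 to 50 Mb (none of 22) and -0.124 over 50 to 100 Mb (1 of 19). In proliferating cells the B pairs at 0.2 to 0.6 Mb changed by -0.040, with 2 of 22 chromosomes above 0. Distal B pairs of proliferating cells also fell, by 0.0615, with 0 of 22 chromosomes above 0. Pairs of A bins lost local contact, from 0.171 to 0.033, and their distal change was 0.000. The local rise of B pairs depended on how fully a bin's pairs were listed. Among the 5563 bins with at least 80% of pairs listed it was 0.00017, and the B pairs turned to -0.0051 at 0.8 to 2 Mb and to -0.027 at 2.2 to 5 Mb.

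**Figure D1:**
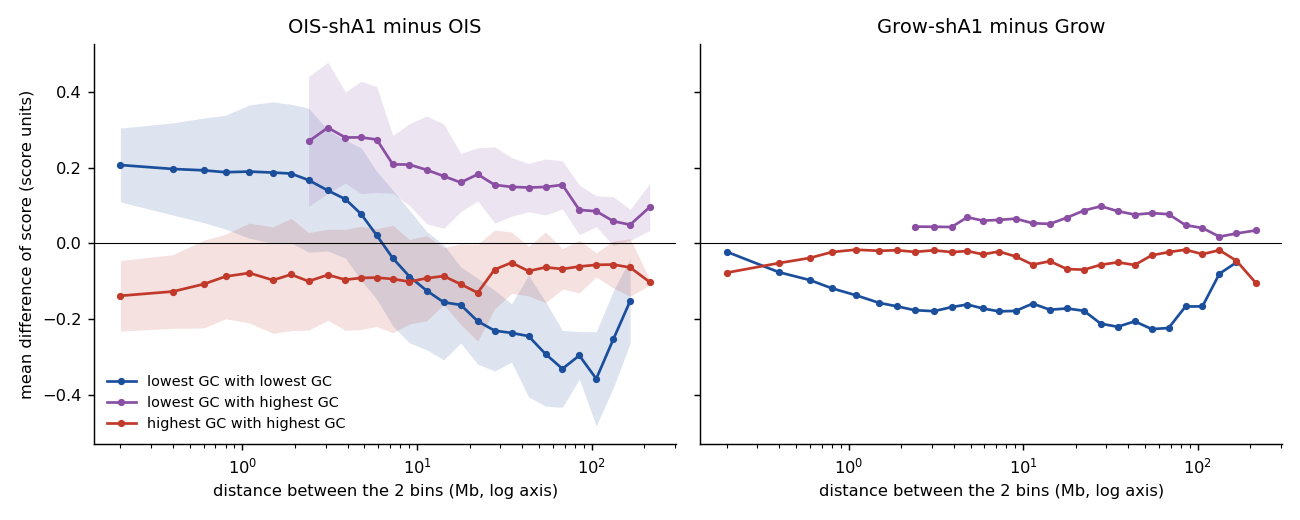
Mean change of score (y axis, score units) against the distance between bins (x axis, Mb, log scale) for pairs within the lowest of 5 GC classes of bins, within the highest and between the lowest and the highest, in senescent (left) and proliferating cells (right), with shading for 1 SD over chromosomes at left. In senescent cells the low-GC pairs average 0.199 at 0.2 to 0.6 Mb and -0.314 over 50 to 100 Mb, and in proliferating cells they lie below 0 at both ranges.

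The same pattern was larger when bins were split by base composition, which uses no contact value. Bins were divided into 5 classes of GC content with equal numbers of bins, the lowest with 32.7% to 36.7% GC, 0.268 gene starts per bin and 84.7% of its bins in B. Between bins of the lowest class, the mean local score was 0.722 in Grow, 0.305 in OIS, 0.496 in OIS-shA1 and 0.607 in Grow-shA1. For the distal pairs of the same bins, the corresponding scores were 0.586, 0.925, 0.717 and 0.398. OIS-shA1 stood between OIS and Grow at both ranges, and Grow-shA1 lay below Grow at both. Up to 0.6 Mb the change was 0.199 (17 of 17 chromosomes above 0), and at 2.2 to 5 Mb it was 0.126. It then fell with distance, to -0.036 for bins 5.2 to 10 Mb apart, -0.151 for 10 to 20 Mb, -0.233 for 20 to 50 Mb and -0.314 for 50 to 100 Mb (none of 15). Among bins with at least 80% of pairs listed the local change of low-GC pairs was 0.0565, with 5 of 14 chromosomes above 0, and the distal change was -0.203, with none of 16 above 0. In proliferating cells both ranges fell, by 0.116 for local and 0.188 for distal pairs, so the local change had the opposite sign in the 2 states while the distal change had the same sign. Whether the states differ could not be tested with 1 map each.

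Chromosomes differed in this split. The local change of low-GC pairs was above 0 on 16 of 17 chromosomes and reached 0.502 on chromosome 9, 0.463 on chromosome 21 and 0.396 on chromosome 14. Chromosome 1 was the exception, at -0.106. The distal change was below 0 on 17 of 18 chromosomes. The exception was chromosome 21, at 0.201, and chromosome 13 stood near 0, at -0.0082. Pairs between the lowest and the highest GC class, which seldom touch in OIS (mean distal score -0.546), moved toward 0 in OIS-shA1 (-0.390), a change of 0.157 above 0 on 20 of 21 chromosomes. At 2.2 to 5 Mb that change was 0.286 on average and above 0 on 19 of 19. Pairs within the highest class fell by 0.10 locally and by 0.082 distally, and the distal change was below 0 on all 22 chromosomes.

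Per bin, the median local change ran from the lowest to the highest GC class at 0.205, 0.008, -0.066, -0.096 and -0.078. The share of bins that rose by more than 0.1 was 63.5% in the lowest class and 15.4% in the highest, beside 30.3% of all bins. In the lowest class the local median was 0.404 among the 75 bins with 50% to 60% of their pairs listed, 0.256 among the 915 bins with 70% to 80%, and 0.005 among the 281 bins with 90% to 100%. The same bins differed in compartment strength, and the part of listing in the result was not tested. Across 12863 bins the Pearson correlation of local change with GC was -0.325 in senescent cells and 0.203 in proliferating cells, and that with the number of HindIII sites, where the Hi-C enzyme cuts, was 0.104. Neighbouring bins share partners, so these correlations describe the maps and carry no p.

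Over the genome, 3898 of 12864 bins (30.3%) rose by more than 0.1 in local contact and 4763 (37.0%) fell by more than 0.1. For distal contact 574 of 12865 bins (4.46%) rose and 2223 (17.3%) fell. After the difference was centred at every distance, the distal counts were 1163 and 965, so the split of higher against lower bins depends on the overall shift. In proliferating cells 539 bins (4.19%) rose and 3870 (30.1%) fell locally, and 60 (0.466%) rose and 1256 (9.76%) fell distally. The SD of the bins' local change was 0.224 in senescent and 0.097 in proliferating cells. Values from odd and even partners of a bin correlated at 0.874 for local and 0.737 for distal change, which describes the precision within these maps alone. Between the senescent and proliferating differences, which share no map, the bins correlated at 0.196 for local and 0.462 for distal change. A gain of local contact together with a loss of distal contact was seen in 1077 of 12864 bins, which averaged 37.7% GC and 0.61 gene starts. The opposite combination was seen in 217 bins, with 43.2% GC and 1.56 gene starts. Another 419 bins fell at both ranges (41.1% GC) and 235 rose at both (36.7% GC).

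Arm values were taken over pairs within the arm, without pairs that join the 2 arms of a chromosome. Among 39 chromosome arms, 29 had a negative and 10 a positive mean distal change. Of the 39, the short arm of chromosome 18 fell the most, by 0.207 over 77 bins, and by 0.138 in proliferating cells. It was followed by 17p (-0.125), 20p (-0.094) and 19q (-0.084). At the other end stood 9p, at 0.101, and 5p, at 0.080, which also had the highest local changes of all arms (0.124 and 0.097). In proliferating cells 9p and 5p changed by -0.079 and -0.086 in distal contact. On 9p the mean change was 0.190 at 2 to 10 Mb and 0.044 beyond 10 Mb. Arm 11p rose by 0.136 at 2 to 10 Mb but changed by -0.041 beyond 10 Mb. The arms 6p and 18p had the lowest local changes, at -0.098 and -0.101. Contact between the arms of a chromosome changed by -0.041 over all chromosomes and by -0.079 on chromosome 4, while it was 0.0080 on chromosome 17 and near 0 on chromosomes 18 (0.00081) and 20 (-0.00080), whose short arms were low within themselves. Over the 39 arms, distal changes in senescent and proliferating cells correlated at 0.295 (Spearman's rho 0.205).

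**Figure D2:**
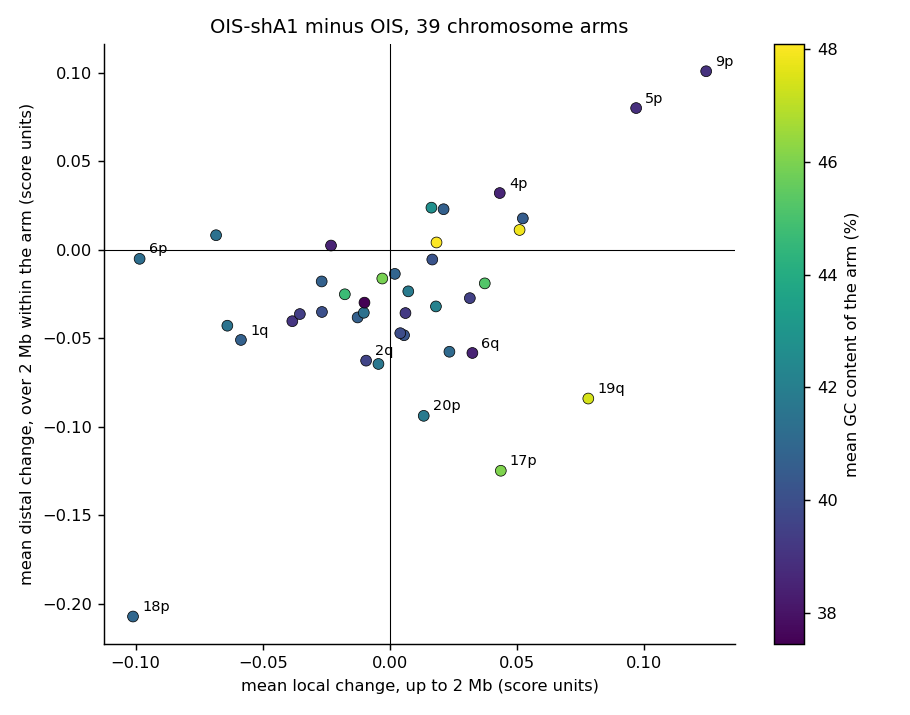
Mean local change (x axis, up to 2 Mb) against mean distal change within the arm (y axis, over 2 Mb), in score units, of the 39 autosomal arms in senescent cells, coloured by the GC content of the arm. Arms 9p and 5p stand at the top right, at 0.101 and 0.080 in distal contact, and 18p at the bottom, at -0.207.

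The regions with the largest local gain lay on 3q, 12q, 21q and 14q. Highest was a stretch of 2 bins on 3q at chr3:166801838-167199424, holding ZBBX, SERPINI2 and WDR49. Its local score was 0.63 in Grow, 0.68 in Grow-shA1, -0.34 in OIS and 0.45 in OIS-shA1, a gain of 0.79 from OIS. SERPINI2 encodes a serpin, a class of protease inhibitors. A gene-free bin on 12q (chr12:82400725-82600650) gained as much, 0.79, from -1.01 to -0.22. The bin of NCAM2, a neural cell adhesion molecule (chr21:22398331-22602190), went from -0.20 to 0.54, and a gene-free bin on 14q (chr14:40393084-40600204) from -0.30 to 0.43. The regions were chosen for a high difference between OIS-shA1 and OIS, a choice that favours low OIS scores.

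The largest local losses lay on 9p, 12q, 4p and 4q. A bin at chr9:44799838-45000748 near the centromere had the lowest value, -0.89, but it rested on 5 pairs and its proliferating change was 0.52. On 12q, chr12:108400215-108800044 went from -0.37 in OIS to -1.15 in OIS-shA1, with -0.70 in Grow and -0.99 in Grow-shA1. It holds WSCD2 and CMKLR1, the receptor of the chemoattractant chemerin. The bin of ACOX3, TRMT44, GPR78 and CPZ on 4p (chr4:8400544-8600797) fell by 0.75, and that of STOX2 on 4q (chr4:184799534-185001181) by 0.70. ACOX3 is an acyl-CoA oxidase of peroxisomes and CPZ a carboxypeptidase.

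Windows of 5 bins at least 10 Mb apart, chosen after their values were seen, gave values over wider regions. The 6 highest local windows lay on 14q, 3q, 21q, 9p (at 2 places) and 4q, with changes of 0.59 to 0.70, GC of 34.9% to 36.2% and 5 of 5 bins in B. They held 5 genes in all: ZBBX, SERPINI2, WDR49, NCAM2 and PDCD10, a gene of cerebral cavernous malformation. In proliferating cells the same windows changed by -0.09 to 0.10. The 6 lowest windows fell by 0.47 to 0.67. The lowest, on 12q, held 10 genes, among them ABTB3, PRDM4 and CMKLR1 (-0.67). ZEB1, a repressor of epithelial genes, lay in the 10p window with ARHGAP12 and the kinesin heavy chain KIF5B (-0.54). PDGFRA, KIT and KDR, a cluster of receptor tyrosine kinases, made up the window on 4q at chr4:55001981-56001234 (-0.54), where the score went from 0.45 in OIS to -0.08 and stood at 0.01 in Grow. Another window on 4q, with IRF2, an interferon regulatory factor, changed by -0.52. The forkhead genes FOXQ1, FOXF2 and FOXC1 on 6p changed by -0.51 and the ubiquitin ligase gene FBXW7 by -0.47. In these 6 windows the proliferating change was between -0.27 and -0.03.

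**Figure D3:**
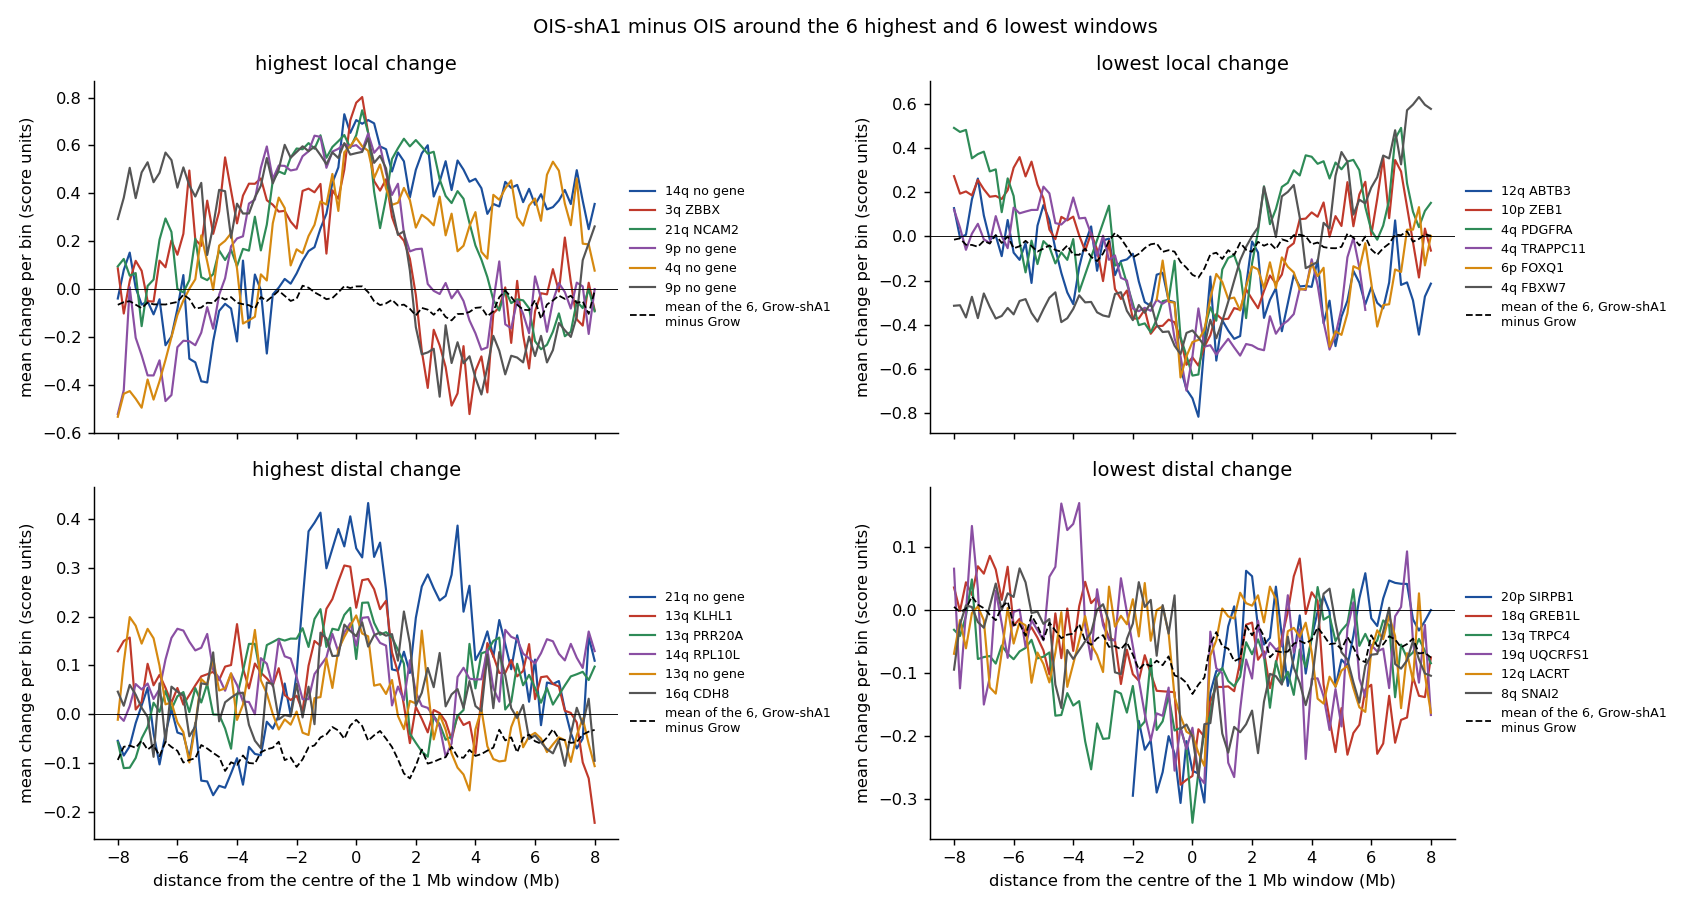
Change per 200 kb bin (y axis, score units) within 8 Mb of the centre of the 6 highest and 6 lowest 1 Mb windows for local and for distal change (x axis, distance from the centre in Mb). Coloured lines are OIS-shA1 minus OIS, named by arm and 1 gene of the window, and the dashed line is the mean of the same windows in Grow-shA1 minus Grow, which varies less than the coloured lines.

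Gains of local contact ran over long stretches and losses over shorter ones. Runs of adjacent bins above 0.3 numbered 409 and held 1398 bins, whereas runs below -0.3 numbered 498 and held 971. The longest gain covered 46 bins on 5p, chr5:17999960-27202252, with a mean of 0.44 against -0.09 in proliferating cells. It holds 4 cadherin genes, CDH18, CDH12, CDH10 and CDH9, and PRDM9, which places meiotic recombination sites. A run of 44 bins on 14q (chr14:39800920-48595951; LRFN5, MDGA2 and others) averaged 0.48. On 9p a run of 27 bins over LINGO2 and C9orf72 averaged 0.51, and one of 26 bins over PTPRD, a receptor tyrosine phosphatase of neurons, averaged 0.54. The axon guidance receptor ROBO1 on 3p (26 bins, 0.40) and RAG1, RAG2 and LRRC4C on 11p (26 bins, 0.47) completed the 6 longest. The longest loss covered 21 bins on 4q (chr4:184395806-188599854), with a mean of -0.48. Its 31 gene starts include IRF2, the Toll-like receptor TLR3, the coagulation factor gene F11 and the cadherin-like FAT1. The 10p run around ZEB1 held 19 bins, from SVIL to NRP1, and averaged -0.42.

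Distal contact rose on the long arm of chromosome 21 and fell at the end of 20p. All 4 regions with the highest distal change lay on 21q. The bin chr21:21597859-21807172 changed by 0.43, that at chr21:20999645-21200819 by 0.41, the bins of TMPRSS15, the intestinal protease enteropeptidase (chr21:19800160-20198669), by 0.40, and that at chr21:24596756-24797636 by 0.39. Their proliferating distal changes were between -0.05 and 0.03. In the first bin the distal score with B bins was 1.03 in Grow, 1.09 in Grow-shA1, 0.64 in OIS and 1.05 in OIS-shA1. Runs above 0.15 on 21q covered 15 bins (mean 0.35) and 10 bins (0.26). On 13q a run of 11 bins over KLHL1 (mean 0.25) was the longest outside chromosome 21. Other high windows were the 13q PRR20 cluster (0.20), RPL10L and MDGA2 on 14q (0.18) and CDH8 on 16q (0.17).

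The lowest distal change of a region was -0.34, at chr13:38798421-39000411, the bin of the ubiquitin-like modifier UFM1. Its score with B bins fell from 0.86 in OIS to 0.42 in OIS-shA1, with 0.57 in Grow and 0.39 in Grow-shA1, and its local change was 0.02. On 20p the bins of SIRPB1 and SIRPG, of TGM6 and SNRPB, and of the beta-defensin genes DEFB125 to DEFB128 changed by -0.31, -0.31 and -0.29. These belong to a run of 13 bins from the start of the chromosome to 2596350 (mean -0.25; -0.12 in proliferating cells) with 46 gene starts. A run of 12 bins on 4q (chr4:174598272-176998561) with HPGD, GLRA3 and GPM6A averaged -0.18, and -0.16 in proliferating cells. Lower windows were also found around UQCRFS1, a subunit of respiratory complex III, on 19q (-0.23), the OR6C olfactory receptor cluster on 12q (-0.21) and SNAI2, a repressor of epithelial genes, on 8q (-0.20).

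Contacts between pairs of regions were then read in blocks of 5 by 5 bins. Of 119244 blocks, 2263 (1.90%) rose by more than 0.5 and 5248 (4.40%) fell by more than 0.5, against 158 (0.136%) and 929 (0.800%) in proliferating cells. The balance changed with distance. At 3 to 10 Mb 4.62% of blocks rose and 4.53% fell, and beyond 50 Mb 0.344% rose and 4.81% fell. Between blocks of B, 8.47% fell beyond 50 Mb, compared with 0.629% between blocks of A. Chromosome 21 had 7.69% of its blocks higher and chromosome 13 had 4.15%.

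Of the 5 lowest blocks, 3 joined gene-poor DNA of 4q with regions of the same arm at least 100 Mb away. The first, chr4:66597270-67599572 with chr4:166598596-167602442 (TLL1, a metalloprotease that processes procollagen), went from 2.32 in OIS to 0.86 in OIS-shA1, with 0.80 in Grow and 0.25 in Grow-shA1. The other two changed by -1.45 and -1.37. The lowest block of all was on 1q, between chr1:185594599-186600414 and the gene-free chr1:190598134-191600042, and fell from 0.47 to -1.01 (Grow 0.03). On 4p, the block of MSX1, a homeobox gene, with that of ACOX3 fell from 0.33 to -1.03. The highest block joined THSD7B on 2q (chr2:137402452-138401849) with a gene-free megabase 9 Mb away and rose from -0.82 to 0.57, with 0.55 in Grow and 0.70 in Grow-shA1. That of NXPH2 with the same partner rose from -0.10 to 1.17. The block of CD44, a hyaluronan receptor, on 11p with gene-free DNA 3 Mb away was at -3.23 in OIS and at -1.99 in OIS-shA1.

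**Figure D4:**
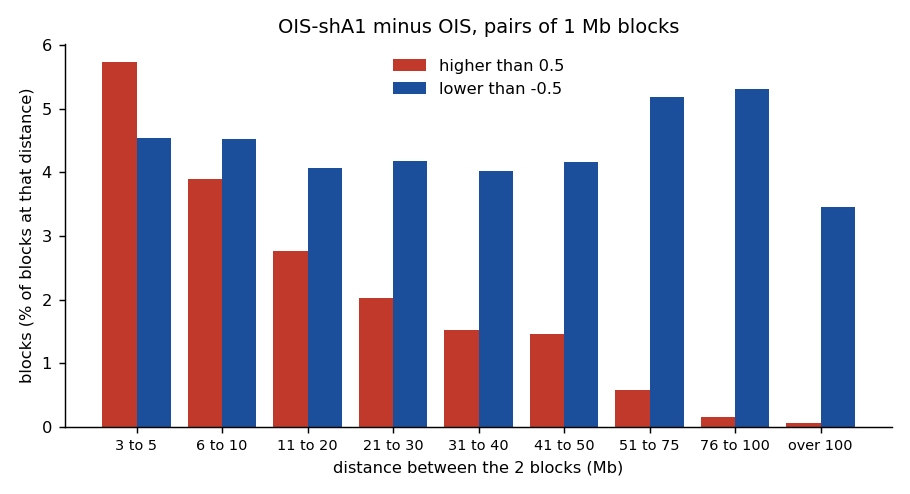
Share of 1 Mb blocks (y axis, percent) that were higher (red) or lower (blue) by more than 0.5 score units in OIS-shA1 than in OIS, by the distance between the blocks (x axis, Mb). The share of higher blocks declines with distance, to 0.344% of all blocks beyond 50 Mb, while that of lower blocks is 4.81% there.

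Positions near chromosome ends and centromeres were also compared. Each mean change of pairs below is smaller than its SD over chromosomes. Distal pairs that joined the 2 arms, with both bins within 5 Mb of the centromere, rose by 0.070 on average (SD 0.179, 13 of 18 chromosomes above 0). In proliferating cells they changed by 0.0017. Contact between the 2 telomeric ends of a chromosome changed by -0.049 (SD 0.085, 2 of 16 above 0), with -0.043 in proliferating cells. Distal contact between telomeric and centromeric bins of the same arm changed by -0.082 (SD 0.111, 9 of 22 above 0), with -0.076 in proliferating cells. The median local change was -0.075 in 764 telomeric bins, 0.035 in 886 centromeric bins and -0.030 elsewhere.

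Few bins changed compartment. The compartment scores of OIS and OIS-shA1 correlated at 0.979 over 12864 bins, and 598 bins had opposite signs, 397 of them leaving A and 201 leaving B, against 366 between Grow and Grow-shA1. Chromosome 1 held 99 of them, and the correlation without it was 0.982. Its 2 longest runs were of 21 bins at chr1:187801505-191999911 (BRINP3) and of 15 bins at chr1:193801178-196800995 (KCNT2, a potassium channel gene). Both had positive scores only in the OIS map (0.14 and 0.16) and scores of -0.27 and -0.28 in OIS-shA1. No bin of either run changed sign when the scores were computed arm by arm. That cannot decide about these runs, because the arm-wise OIS score of 1q had the opposite sign to the other maps. The OIS compartment score of chromosome 1 correlated with GC at 0.128 and that of OIS-shA1 at 0.280. On 2p, 5 bins over the receptor tyrosine kinase gene ALK went from 0.20 to -0.08, and all 5 also changed in the arm-wise scores.

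Gene lists of senescence and of fibroblasts were read by the bins of their genes, beside the medians over all bins of -0.027 for local and -0.030 for distal change. Of all bins 30.3% rose and 37.0% fell locally by more than 0.1, and 4.46% rose and 17.3% fell distally. Of A bins 11.3% rose and 53.1% fell locally, and of B bins 43.7% rose and 25.7% fell, while distally 4.46% of A bins and 26.3% of B bins fell. The 20 very long neuronal genes, all in B, had the highest local median of the 13 lists, 0.217. Of their 20 bins 16 rose by more than 0.1 and 1 fell, beside 43.7% and 25.7% of B bins, and their proliferating median was -0.092. In distal contact 2 rose and 7 fell, beside 26.3% of B bins that fell. PTPRD had the highest local change of the list, 0.57, and LSAMP, a cell adhesion protein of the limbic system, the lowest, -0.11, with a distal change of -0.17. Their bins had a median GC of 37.4%, against 39.8% for all bins. Of 107 bins of olfactory receptors, 17 in A, 43 rose and 41 fell locally. The shares were 30.3% and 37.0% of all bins and 43.7% and 25.7% of B bins. Distally 1 rose and 37 fell (median -0.076), beside 4.46% and 17.3% of all bins and 26.3% of B bins that fell. Among 89 bins with zinc finger genes of chromosome 19, 37 rose and 12 fell locally, beside 43.7% and 25.7% of B bins (18 of the 89 were in A), with ZNF473 the highest at 0.40.

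The genes of the senescence-associated secretory phenotype (SASP), the factors senescent cells secrete, lay in 14 bins. Of these, 11 in A, 2 rose and 6 fell locally (median -0.053). The shares were 30.3% and 37.0% of all bins and 11.3% and 53.1% of A bins. Distally 2 fell, beside 17.3% of all bins and 4.46% of A bins. The bin of CXCL8, the neutrophil chemokine IL-8, with CXCL1 and CXCL6, had the lowest local change of the list, from -0.99 in OIS to -1.28 in OIS-shA1 (Grow -1.01, Grow-shA1 -1.09). Its change was uneven along 4q: 0.78 (SD over 7 pairs 0.73) with bins 4.2 to 6 Mb toward lower coordinates, and -0.33 to -0.39 with bins up to 6 Mb toward higher coordinates. CXCL2 changed by -0.25, IL1A and IL1B, the interleukin 1 genes that share a bin, by -0.14, CSF2 by -0.13 and IL6 by 0.12. IL11 had the highest value, 0.35. CCL2, a monocyte chemokine, changed by -0.02 locally and by -0.15 distally.

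Of the 7 bins of matrix metalloproteinases, 5 in A, 2 rose and 4 fell locally, beside 11.3% and 53.1% of A bins. Their local median was -0.15 and their distal median 0.052, with 0.137 for distal contact with B bins. MMP1, the interstitial collagenase, rose by 0.11 locally as a mean, but its median over pairs was -0.054. Its score with B bins went from -1.05 to -0.83. MMP14, a membrane-bound member, had the lowest local value, -0.26. When bins and their partners were limited to those with 80% of pairs listed, only 3 of the 7 bins gave values. Over those partners alone their local median was 0.011 and their distal median -0.147, both of opposite sign to the medians of all 7. With all partners the lowest distal change of the 7 bins was -0.102. For NF-kB, C/EBP and AP-1 factors, which drive the SASP, 4 of 17 bins, 14 in A, rose and 7 fell locally (median -0.023). The shares were 30.3% and 37.0% of all bins and 11.3% and 53.1% of A bins. RELB was highest (0.30) and NFKBIA, the NF-kB inhibitor, lowest (-0.39). Type I interferon bins numbered 4, with 1 in A. Locally 1 rose, that of IFNK (0.32), and 0 fell, and IFNB1 was at -0.07. The shares were 30.3% and 37.0% of all bins and 43.7% and 25.7% of B bins.

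Among arrest regulators 3 of 11 bins rose and 3 fell locally (median 0.023), beside 30.3% and 37.0% of all bins, and 7 of the 11 were in A. CDKN2A, which encodes the cell cycle inhibitor p16, shares its bin with CDKN2B and MTAP. It went from -0.62 in OIS to -0.52 in OIS-shA1 (Grow 0.05, Grow-shA1 0.06), its distal change of 0.12 was the highest of the list, and its score with B bins went from -0.24 to -0.03. The gain was 0.72 (SD over 10 pairs 0.31) with bins 2.2 to 4 Mb toward higher coordinates and 0.14 on the other side. RB1, the retinoblastoma gene, had the lowest local value, from 0.15 to -0.15 (Grow -0.31, Grow-shA1 -0.28). The bin of CDKN1A, which encodes p21, had too few listed pairs and gives no value. Of 24 bins with cell cycle genes 6 rose and 12 fell locally (median -0.080), beside 30.3% and 37.0% of all bins and 53.1% of A bins that fell (15 of the 24 were in A). CCNA2, cyclin A, fell from -0.06 to -0.40 (Grow -0.62), PCNA, the replication clamp, by 0.23, BUB1, a spindle checkpoint kinase, by 0.23 and PLK4, which controls centriole number, by 0.36. CCNE1 and AURKA rose by 0.27 and 0.25.

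Of 21 bins with extracellular matrix and fibroblast genes, 20 of them in A, 10 fell and 1 rose locally (median -0.057), near the 53.1% and 11.3% of A bins. The one that rose was FAP, fibroblast activation protein, which went from -0.64 to -0.30 (Grow -0.13, Grow-shA1 -0.30). FBLN2, a fibulin, fell by 0.43, the proteoglycans DCN and LUM, which share a bin, by 0.18 and VCAN by 0.14. COL1A2 was at 0.00 locally and at -0.15 with distal B bins, while FBN1, fibrillin, rose by 0.25 with distal B bins. TGF beta ligands and receptors had 3 of 14 bins higher and 4 lower locally, and none past 0.1 distally. Locally 30.3% and 37.0% of all bins were higher and lower, and 11.3% and 53.1% of A bins (10 of the 14 were in A). TGFBR3 was highest (0.30) and BMP4 lowest (-0.28). In nuclear lamina and HMG genes 3 of 9 bins rose and 3 fell locally. The shares were 30.3% and 37.0% of all bins and 11.3% and 53.1% of A bins (8 of the 9 were in A). HMGB2 was at 0.31 and LEMD3, an inner nuclear membrane protein, at -0.42. The bin of HMGA1 itself changed by -0.08. Ribosomal protein genes had 14 of 66 bins higher and 27 lower (median -0.074), 55 of them in A, where 11.3% of all A bins were higher and 53.1% lower, and RPL9 was lowest at -0.49.

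**Figure D5:**
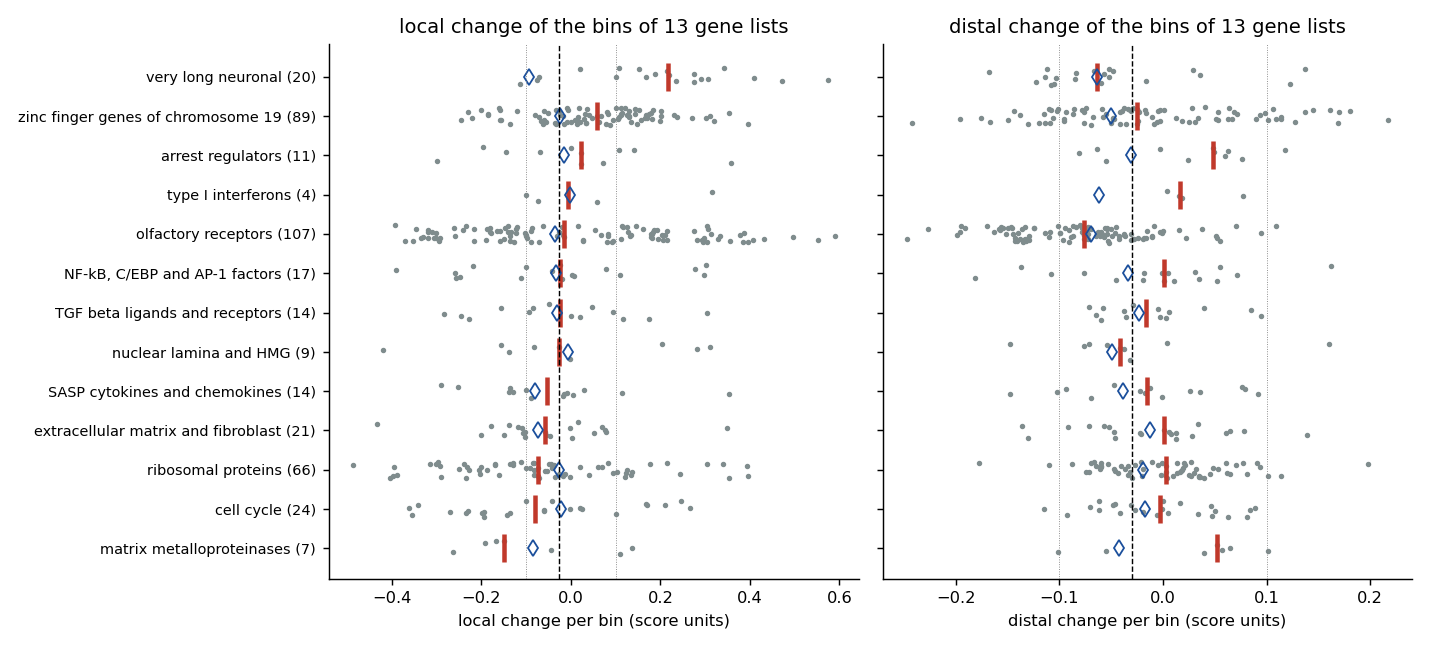
Local and distal change (score units) of each bin that holds a gene of the 13 lists, in senescent cells (grey points), with the list medians (red) and the medians in proliferating cells (blue diamonds), the median of all bins (dashed line) and the limits of 0.1 (dotted). The very long neuronal genes lie to the right of the other lists in local change (median 0.217), and the matrix metalloproteinases have a distal median of 0.052.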

How the data were processed

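Hi-C was made with HindIII from 2 samples of each shA1 condition. Per the labels and methods, the authors aligned reads to hg19, built ICE-normalized maps of 200 kb bins with HiC-Pro and corrected them for distance. The deposited values are scores, 1 file per map. Bins ended at the GRCh37 chromosome lengths and began at HindIII sites. Read depth was not in the files, so the number of pairs listed (4032189 in OIS-shA1, 4123451 in OIS) stands in for it. Scores were subtracted pair by pair, and unlisted pairs were left out. Bins with under 50% of pairs listed in either map got no bin value, though they stayed as partners of other bins. Their pairs were left out of the compartment, GC, single-arm and chromosome-end means. All listed pairs entered the genome-wide means by distance, the comparison within and between arms, and the blocks. Compartments were the first principal component of the correlation matrix of each chromosome's Grow map. Gene positions came from GENCODE 44 lifted to GRCh37. Changes were computed with Python 3.11.15, numpy 2.4.6 and pandas 2.3.3, and the code was tested on simulated data with planted changes. A bin was called at 0.1 and a block at 0.5 score units. With 1 map per condition there is no test, and SDs over chromosomes or pairs are not replicate errors.

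Named regions were the 5 most extreme bins per direction, with adjacent bins joined, and named genes were the fixed senescence and fibroblast genes and the highest and lowest bin of each of 13 lists. The members and lists were chosen with earlier results of these data known. Alternatives were capping, scaling by the SD, centring, filling of unlisted pairs, other filters, distances and block sizes, and medians. A few genes and sequences are not reported here.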

Additional observations from a re-analysis of the deposited data

How the results depend on the processing

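No paired analysis was possible because the files pool the 2 samples of a condition in 1 map. For the same reason there was no replicate to leave out. Of 935 alternatives of summary values, 878 moved by less than the SD over chromosomes (over bins for lists) or stayed within 1.5 times a count, 53 moved further and 4 reversed a value past that SD or past the threshold of a list. The 878 include values that could not move. Keeping every bin with a value, or filtering on joint listing, changed only the bin filter, and each setting left all its 85 values in this class. Genome-wide means by distance, the comparison within and between arms, and the blocks use all listed pairs. For those values these settings test nothing. A move within the SD can be large: the local change of low-GC pairs went from 0.192 to 0.0565 with 80% of pairs listed. The sign turned in 59, 15 of them with 80% of pairs listed. Among values of single genes and regions 2088 were classed as unchanged, 60 as stronger, 72 as weaker and 6 as reversed. A value within 0.1 counted as unchanged unless it passed 0.1 with the same sign. The 2088 can therefore include small values whose sign turned. The cause of the shifts below was not tested.

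With only bins that have 80% of pairs listed, the local change was -0.058, the distal -0.063 and the within-arm distal -0.063, and by distance the change was -0.062, -0.056, -0.025 (sign turned), -0.045, -0.060 and -0.066 from 0.2 to 50 Mb. In the same bins A-B distal pairs changed by -0.038, B pairs locally by 0.00017, by 0.0093 at 0.2 to 0.6 Mb and by -0.0051 (reversed) at 0.8 to 2 Mb, and low-GC pairs at 0.2 to 0.6 Mb by 0.061. Bins higher and lower locally then numbered 936 and 2242, bins higher distally 319, arms higher and lower locally 5 and 31, arms higher distally 1, and blocks higher and lower 372 and 950. In this setting the partners of a bin were also limited to bins with 80% of pairs listed. List medians then rested on fewer bins. Distal medians became -0.099 (SASP, 4 bins), -0.147 (metalloproteinases, 3 bins, sign turned) and -0.085 (extracellular matrix, 9 bins, sign turned). They became -0.126 for lamina and HMG (4 bins) and -0.145 for olfactory receptors (50 bins). The metalloproteinases' local median (3 bins) reversed to 0.011 and RPS19 to -0.084.

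With medians in place of means the distal change was -0.014, that at 0.2 to 0.6 Mb -0.049, over 50 to 100 Mb -0.012, beyond 100 Mb 0.0077 (sign turned), between arms -0.00085 and for A-B distal pairs 0.033 (sign turned), and MMP1 (-0.054) and the bin of ZNF554, ZNF555 and ZNF556 (-0.0089) reversed locally. Scaling by the SD gave 0.015 (reversed) at 0.2 to 0.6 Mb, -0.053 for B pairs and -0.156 for low-GC pairs over 20 to 50 Mb, -0.493 for low-GC pairs beyond 100 Mb and 4010 higher blocks. Centring gave -0.00029 within arms, 0.000596 (reversed) between arms, -0.057 for B pairs over 20 to 50 Mb, 0.052 for interferon distal contact, 1163 bins higher and 965 lower distally and 19 arms higher. Filling unlisted pairs gave 887 bins higher distally, 3985 higher blocks and 0.327 for JUNB (reversed). At a threshold of 0.2, bins higher and lower numbered 2471 and 2497 locally and 51 and 111 distally. Distal limits of 2 to 50 Mb gave 1145 higher bins, and those over 5 Mb gave 6 higher arms. Blocks of 10 by 10 bins gave 263 higher and 703 lower. Of the alternatives added after the data were seen (joint listing, leaving out chromosome 1, compartments per arm), arm-wise compartments raised the sign changes to 928. Of these, 440 lay on chromosome 1, where the arm-wise OIS score of 1q had the opposite sign to the other 3 maps, and 338 were shared with the 598. Without chromosome 1 the arm-wise scores correlated at 0.983.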
